A study of Homo sapiens with 8 samples.

Results

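The MYC family and the proteins that share its partner MAX were followed at the mRNA level in SH-SY5Y cells, a human neuroblastoma (NB) line that carries no amplification of MYCN. The 10 genes described were chosen by symbol: MYC, MYCN and MYCL, their partner MAX, the MAX-binding repressors MXD1, MXD3, MXD4, MXI1 and MNT, and the MAX-like factor MLX. All 10 were found among the 47591 genes of the deposited table, and all 10 passed the filter on low values, a mean normalized count of at least 10 over the libraries, along with 18947 genes in all. RNA-seq of polyadenylated RNA was available for 3 lines. The G2 line (3 libraries) was made by CRISPR/Cas9 editing directed at PRPF40B, a splicing factor. The scramble line (SCR, 3 libraries) received the CRISPR/Cas9 machinery with a control guide, and the WT line (2 libraries) was not modified. According to the study's methods the edited cells were selected with puromycin and raised as single colonies by limiting dilution, and G2 and SCR were kept in puromycin, which is not stated for WT. Each group is therefore 1 line, and the replicates measure the spread between its cultures and libraries, not between independent edits.

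MYC, MYCN and MYCL are basic helix-loop-helix leucine zipper transcription factors that bind DNA only as dimers with MAX, mostly at the E-box CACGTG, and raise the expression of genes of ribosome production, nucleotide synthesis and growth. The MXD proteins, MXI1 and MNT compete for MAX and for the same sites, where they recruit the SIN3-HDAC corepressor. MLX forms a parallel arm with the glucose-sensing factors MLXIP (MondoA) and MLXIPL (ChREBP). In NB, amplified MYCN marks aggressive tumours, while lines without the amplification often express MYC instead.

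The normalized counts of a library summed to between 61135884 and 77225106, and the counts recovered from them to between 59804395 and 81080747. PRPF40B itself checked the labels. It stood at 840, 841 and 918 normalized counts in G2, at 1686, 1672 and 1669 in SCR and at 1972 and 1668 in WT, so its mRNA in G2 was near 0.517 of that in SCR and was not abolished. The neuroblast marker DBH, the enzyme that makes noradrenaline, was present in every library, from 14907 normalized counts upwards. The fibroblast genes COL3A1 and DCN were also present, and G2 held far more of both than the other lines (COL3A1 40156 to 41625 in G2, 3242 to 3410 in SCR and 248 to 258 in WT). In bulk RNA, fewer cells of a type and less RNA per cell cannot be told apart. Ribosomal RNA entries took 4.75% to 4.96% of the normalized counts in WT, 0.38% to 0.59% in G2 and 0.43% to 0.49% in SCR. When every library was scaled to the same total instead, the median gene moved by 0.19 in G2/WT and by 0.28 in SCR/WT on the log2 scale, and by -0.09 in G2/SCR. The share of calls that were higher went from 59.3% to 75.8%, from 65.6% to 90.7% and from 56.2% to 47.4%, so modest differences from WT depend on the scaling.

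The lines differed in a large share of the transcriptome, and the members are read against that share. A gene was called when its fold change reached 1.5 with an unadjusted limma p of at most 0.05. In G2/SCR 26.9% of the genes tested were called, 15.1% higher and 11.8% lower. In G2/WT 29.9% were called, 17.7% higher and 12.2% lower, and in SCR/WT 16.3%, 10.7% higher and 5.63% lower. Of the 10 members, 6 were called in G2/SCR (1 higher and 5 lower), 3 in G2/WT (1 higher and 2 lower) and 5 in SCR/WT (4 higher and 1 lower). All of these also stayed within 0.05 after Benjamini-Hochberg adjustment of limma's p over all genes tested. The members' median log2 fold change was -0.60, -0.16 and 0.35, against -0.01, 0.00 and 0.01 over all genes tested. The 3 comparisons share libraries, so their values are set side by side and are not independent.

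**Figure D1:**
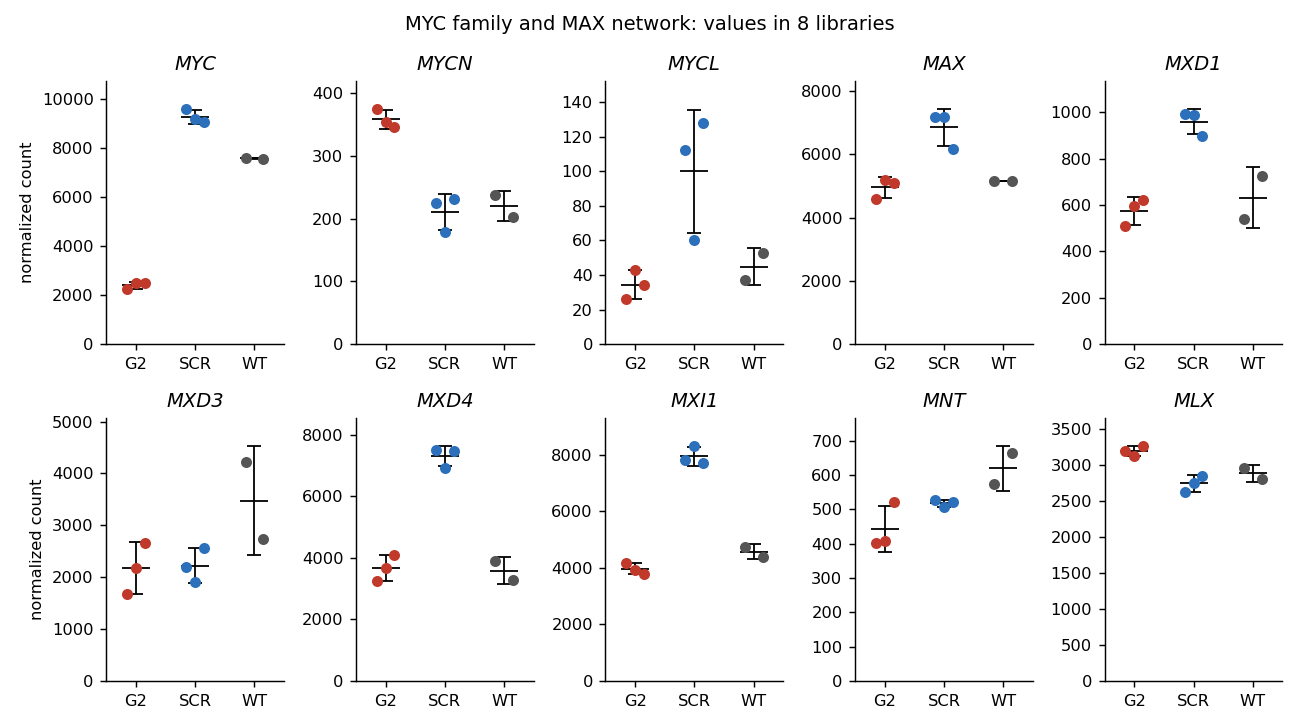
Normalized counts of the 10 members in each library. Points are libraries (G2 red, SCR blue, WT grey), the horizontal bar is the mean of a line and the whiskers are 1 SD, and every vertical axis starts at 0. MYC is low and MYCN high in the G2 libraries alone, while MXD1, MXD4, MXI1 and MYCL are highest in the SCR libraries.

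MYC fell in G2 to 0.259 of its level in SCR, the largest difference of any member in that comparison. Its normalized counts were 2244, 2478 and 2506 in G2, 9590, 9210 and 9052 in SCR, and 7608 and 7564 in WT. The G2 libraries lay far below all others, and the spread within a line was small beside that gap. MYC was 3.86-fold lower in G2 than in SCR (log2 fold change -1.95 ± 0.06 (SE), limma adjusted p = 1.4e-10) and 3.15-fold lower than in WT (-1.66 ± 0.06, limma adjusted p = 1.3e-09). SCR was slightly above WT, by 0.29 ± 0.06 on the log2 scale, which is short of the fold required for a call although the libraries did not overlap (limma adjusted p = 0.0044). With libraries scaled to the same total it was 0.57. MYC lies on chromosome 8 from 127735434 to 127742951 (hg38, identifier GSHG0042006), and no other entry of the table overlaps it.

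MYCN, the family member that defines high-risk NB, moved the opposite way. It was measured at 374, 353 and 346 normalized counts in G2, at 224, 178 and 231 in SCR and at 237 and 203 in WT. The G2 libraries were again separate from the rest, this time above them, whereas SCR and WT overlapped. MYCN was 1.70-fold higher in G2 than in SCR (0.77 ± 0.13, limma adjusted p = 0.00036) and 1.63-fold higher than in WT (0.70 ± 0.14, limma adjusted p = 0.0014). In SCR/WT the difference was -0.06, with a 95% confidence interval from -0.38 to 0.25. MYCN (GSHG0023571) lies on chromosome 2 from 15940438 to 15947004. Its antisense gene MYCNOS overlaps it in the table at a mean of 10.7 normalized counts, and the strand setting of the counting is not given in the sources used here.

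MYCL, the third family member, was scarce everywhere. The G2 libraries held 26.3, 42.7 and 34.4 normalized counts, the SCR libraries 112, 60.1 and 128, and the WT libraries 37.2 and 52.6. SCR stood above both other lines with a wide spread of its own, and G2 and WT overlapped. MYCL was called lower in G2/SCR (-1.47 ± 0.32, limma adjusted p = 0.0021) and higher in SCR/WT (1.09 ± 0.35, limma adjusted p = 0.031). The second call rests on few counts: without WT replicate 1 it became 0.85 with an adjusted p of 0.16.

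The make-up of the family therefore differed between the lines. Levels of different genes were set on 1 scale by dividing the normalized count by the kb of exon in GENCODE release 44, 6.11 kb for MYC, 2.75 kb for MYCN and 4.97 kb for MYCL. This length joins the exons of all transcripts of a gene, and reads were counted on another annotation, FAST DB. Ratios, shares and ranks between genes therefore depend on the length used, while the fold of 1 gene between lines does not. On this scale MYC exceeded MYCN 2.71-, 3.17- and 3.27-fold in the G2 libraries, 19.4-, 23.3- and 17.7-fold in the SCR libraries, and 14.5- and 16.8-fold in the WT libraries. MYC made up 72.3% to 75.6% of the summed MYC family mRNA per kb in G2 and 93.0% to 95.2% in SCR and WT. MYCN made up 23.1% to 26.7% in G2 and 4.1% to 6.4% elsewhere. MYC remained the most abundant family member in each of the 8 libraries, and the gain of MYCN (a mean of 130 in G2 against 76.6 in SCR, in normalized counts per kb) was small beside the loss of MYC (394 against 1520).

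MAX, the partner that the MYC and MXD proteins share, varied less. It stood at 4595, 5208 and 5088 normalized counts in G2, at 7177, 7195 and 6187 in SCR and at 5163 and 5162 in WT. SCR lay above both other lines without overlap, and G2 and WT overlapped. The difference of -0.46 ± 0.07 in G2/SCR had a limma adjusted p of 0.00018 but did not reach the fold for a call, and neither did 0.41 in SCR/WT. With libraries scaled to the same total, MAX in SCR/WT was 0.68 and was called, and MAX in G2/WT went from -0.06 to 0.13. The entry of FNTB (740 normalized counts on average) overlaps MAX.

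Among the repressors that compete for MAX, MXI1 and MXD4 differed little between G2 and WT and stood well above both in SCR. MXI1, also called MAD2, was at 4179, 3920 and 3789 normalized counts in G2, 7818, 8303 and 7685 in SCR, and 4748 and 4393 in WT. MXD4 was at 3259, 3670 and 4099 in G2, 7499, 6911 and 7477 in SCR, and 3885 and 3261 in WT. For both genes every SCR library exceeded every other library by a wide margin. In G2/SCR the log2 fold changes were -1.0 ± 0.06 for MXI1 (limma adjusted p = 5e-08) and -0.99 ± 0.09 for MXD4 (limma adjusted p = 1.7e-06). In SCR/WT they were 0.80 ± 0.07 and 1.03 ± 0.10, both called. In G2/WT MXD4 differed by 0.04, with an interval from -0.17 to 0.26 (0.23 with libraries scaled to the same total), and MXI1 by -0.21, with an interval from -0.35 to -0.06, or by -0.02 with libraries scaled to the same total.

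MXD1, the founding member of the MXD proteins and a gene that rises in many differentiating cells, had the same order at a lower level. Its normalized counts were 508, 596 and 623 in G2, 991, 989 and 896 in SCR, and 539 and 725 in WT. SCR again lay above both other lines. MXD1 was called lower in G2/SCR (-0.74 ± 0.12, limma adjusted p = 0.00023) and higher in SCR/WT (0.62 ± 0.13, limma adjusted p = 0.0035). Without WT replicate 1 the latter was 0.40 and no longer called. So for 4 of the 6 members called in G2/SCR (MXD1, MXD4, MXI1 and MYCL) the SCR line was also called against WT and G2 was not, although MXI1 in G2/WT had a limma adjusted p of 0.022 at its smaller fold. MYC and MYCN were called in G2 against both control lines.

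MXD3, an MXD protein expressed in cycling cells, differed from WT in both G2 and SCR. It was measured at 1677, 2184 and 2667 normalized counts in G2, at 2194, 1903 and 2568 in SCR and at 4222 and 2732 in WT. The WT libraries lay above all others, but they were far apart, and G2 and SCR overlapped. The log2 fold change was -0.67 ± 0.20 in G2/WT (limma adjusted p = 0.015) and -0.62 ± 0.20 in SCR/WT (limma adjusted p = 0.031). Both calls were lost without WT replicate 1 (-0.35 and -0.31) and with libraries scaled to the same total (-0.48 and -0.35). The G2/WT call was also lost without G2 replicate 1 (-0.49), and the SCR/WT call without SCR replicate 2 (-0.52). The entry of PRELID1, with a mean of 54241 normalized counts, overlaps MXD3, so a small share of its reads would be large for MXD3, and how reads shared by both genes were counted is not given in the sources used here.

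MNT, the broadly expressed MAX partner that opposes MYC in growing cells, was not called in any comparison. It stood at 401, 408 and 522 normalized counts in G2, at 527, 507 and 522 in SCR and at 574 and 666 in WT. Its largest difference, -0.49 ± 0.13 in G2/WT (limma adjusted p = 0.0063), was -0.30 with libraries scaled to the same total, and reached the fold for a call when G2 replicate 3 (-0.61) or WT replicate 1 (-0.60) was left out. Entries without a symbol, at means of 216 and 14.4 normalized counts, overlap MNT. MLX, the member that pairs with the glucose-sensing factors rather than with MAX, was also not called. It was at 3204, 3125 and 3266 normalized counts in G2, 2628, 2755 and 2856 in SCR, and 2965 and 2805 in WT. The G2 libraries were slightly above all others (0.22 ± 0.06 in G2/SCR, limma adjusted p = 0.0076). MLX overlaps PSMC3IP, at 5821 normalized counts on average.

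**Figure D2:**
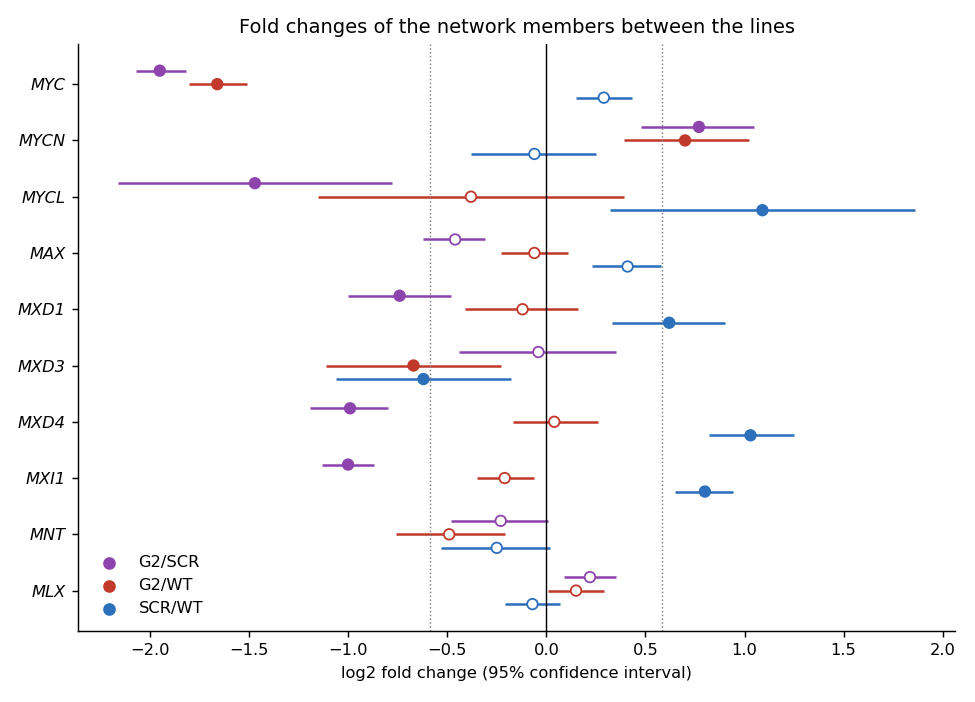
Log2 fold changes of the members in G2/SCR (purple), G2/WT (red) and SCR/WT (blue) with 95% confidence intervals from limma. Filled points were called, and the dotted lines mark a fold of 1.5. MYC lies near -1.95 and -1.66 in the G2 comparisons and MYCN near 0.77 and 0.70, while MXD4 and MXI1 lie near -1 in G2/SCR and on the other side of 0 in SCR/WT.

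The order of the members by level per kb of exon depends on the exon length used for each gene. By this measure MYC headed the members in SCR (1520 ± 45.3, SD, n = 3) and in WT (1242 ± 5.1, n = 2) but was sixth of the members in G2 (394 ± 23.5, n = 3). In G2 the order was MAX (793), MLX (752), MXI1 (671), MXD4 (535), MXD3 (459), MYC, MYCN (130), MXD1 (90.6), MNT (51) and MYCL (6.94). The libraries of neighbours in this order overlapped for MAX and MLX, for MXD4 and MXD3 and for MXD3 and MYC, and were apart for the others. In SCR the order was MYC, MXI1 (1343), MAX (1095), MXD4 (1061), MLX (645), MXD3 (468), MXD1 (151), MYCN (76.6), MNT (59.6) and MYCL (20.2), where MAX and MXD4 overlapped. In WT it was MYC, MAX (825), MXI1 (774), MXD3 (733), MLX (678), MXD4 (520), MXD1 (99.5), MYCN (79.8), MNT (71.2) and MYCL (9.05), where MXI1 overlapped MXD3, MXD3 overlapped MLX, and MXD1, MYCN and MNT overlapped in turn. The summed level of MYC, MYCN and MYCL was 0.277 to 0.306 of the summed level of MXD1, MXD3, MXD4, MXI1 and MNT in the G2 libraries, 0.508 to 0.541 in SCR, and 0.556 and 0.666 in WT. This ratio was lowest in the G2 libraries, and its 2 parts moved differently: the MYC family sum was 508 to 543 in G2, 1584 to 1674 in SCR and 1322 to 1339 in WT, whereas the repressor sum was 1661 to 1958, 3026 to 3132 and 1985 to 2410.

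**Figure D3:**
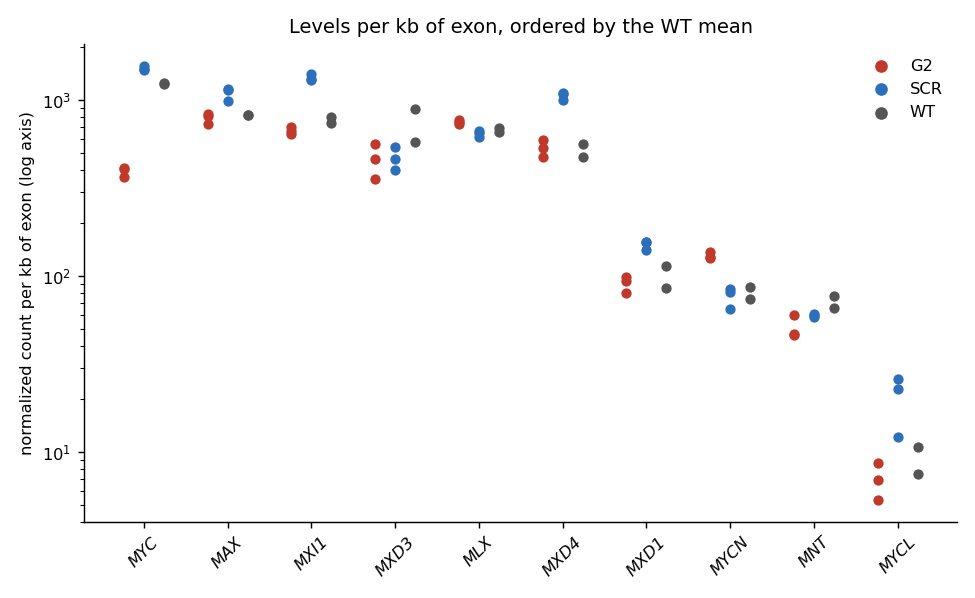
Normalized count per kb of exon (log axis) for each member and library, with G2 in red, SCR in blue and WT in grey, and genes ordered by their mean in WT. MYC is at the top in SCR and WT and drops to 394 per kb on average in G2, among the MXD genes.

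The E-box, the sequence that MYC-MAX and MXD-MAX dimers share, was looked for in the RefSeq promoter windows (GRCh38.p14, 250 bases before to 50 after the start of a gene), which were at hand for 9 of the 10 members, all but MYC. CACGTG reads the same on both strands. It was found in 7.26% of all 35116 windows, in 8.77% of the genes with a window, and in 3 of the 9 members, MXD4, MNT and MLX. Their sites are shown on the strand of the gene, with the E-box in capitals, because all 3 genes hold the motif and 1 of them was called while the others stayed under the fold for a call.
MXD4 (chr4:2262315-2262359, minus strand): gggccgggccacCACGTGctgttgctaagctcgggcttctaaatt
MNT (chr17:2401221-2401280, minus strand): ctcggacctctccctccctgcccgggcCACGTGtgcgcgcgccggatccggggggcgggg
MLX (chr17:42567023-42567082, plus strand): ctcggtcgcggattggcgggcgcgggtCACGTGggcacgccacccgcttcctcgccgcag
MXD4 was called in G2/SCR and SCR/WT, and MNT and MLX in no comparison. MYCN, MXD1 and MXI1, which were called, have no CACGTG within their windows, so members with and without the motif in this window are found both among those called and among those not called.

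Of the genes of the MLX arm, 2 of 5 were called in G2/SCR, both lower, and these were the 2 targets on the list. For comparison, 11.8% of all genes tested were called lower there. TXNIP, a thioredoxin-binding arrestin that limits glucose uptake and a classical MondoA-MLX target, had 1159, 1219 and 1133 normalized counts in G2, 3729, 3685 and 3545 in SCR, and 3081 and 2973 in WT. ARRDC4, a related arrestin, had 65.9, 76.6 and 68.8 in G2, 210, 243 and 233 in SCR, and 128 and 159 in WT. The G2 libraries were below all others for both genes. The log2 fold changes were -1.64 ± 0.06 and -1.69 ± 0.15 in G2/SCR and -1.37 ± 0.07 and -1.01 ± 0.17 in G2/WT, and ARRDC4 was also called higher in SCR/WT (0.68). The sensors were not called in G2/SCR but also had lower values there. MLXIP was at -0.29 with no overlap (limma adjusted p = 0.0063), and MLXIPL at -0.57 with overlapping libraries (limma adjusted p = 0.064), and MLXIPL was called higher in SCR/WT (0.91). MGA, a MAX partner with a T-box domain, was at 0.06 in G2/SCR. The promoter windows of the 2 targets are shown since MLX dimers bind paired E-box-like sites. The window of ARRDC4 holds CACGTG, and that of TXNIP holds CACGAG 2 times, 5 bases apart (in capitals).
ARRDC4 (chr15:97960466-97960525, plus strand): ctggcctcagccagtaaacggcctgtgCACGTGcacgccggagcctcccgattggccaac
TXNIP (chr1:145996624-145996694, minus strand): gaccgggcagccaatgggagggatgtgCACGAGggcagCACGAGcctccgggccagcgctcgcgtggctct
Paired sites of the form CACGNG and CNCGNG, 5 bases apart on either strand, were found in 0.50% of all windows. The window of TXNIP holds such a pair, and none was found for ARRDC4. Among the members the window of MXI1 holds such a pair. This search was added after the values had been seen.

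Among the 16 genes of the SIN3-HDAC corepressor, through which MXD proteins and MNT act, 1 was called higher and 1 lower in G2/SCR, and the median was 0.02. Among all genes tested 15.1% were called higher and 11.8% lower. HDAC1, a histone deacetylase of the complex, had 4586, 4653 and 4695 normalized counts in G2, 2420, 2384 and 2526 in SCR, and 3345 in both WT libraries. It was highest in G2 and lowest in SCR (0.93 ± 0.05 in G2/SCR, limma adjusted p = 3.3e-08). SAP30, which bridges SIN3 to the deacetylases, was lower in G2 than in SCR (-0.61 ± 0.07) and than in WT (-1.0 ± 0.08), both called. None of the 19 MYC coactivators was called in G2/SCR by limma, edgeR or DESeq2, although 8 had an unadjusted limma p of at most 0.05 at smaller folds, and the median of the list was 0.01. Such a p, at any fold, was found for 10419 of the 18947 genes tested. In G2/WT 1 was called lower, RUVBL2, and in SCR/WT 1, SKP2 (these 2 were named after their values were seen).

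Of the 18 genes that act on the stability of MYC proteins, 2 were called in G2/SCR, both higher, against 15.1% of all genes tested. PPP2R5A, a PP2A subunit that promotes removal of the phosphate that stabilizes MYC, stood at 1533, 1437 and 1511 normalized counts in G2, 655, 639 and 580 in SCR, and 555 and 599 in WT. All G2 libraries exceeded all others by more than the spread within lines (1.26 ± 0.08 in G2/SCR and 1.37 ± 0.09 in G2/WT, limma adjusted p = 7.6e-08 and 1e-07). FBXW7, the ubiquitin ligase subunit that recognizes phosphorylated MYC, was at -0.46 and not called, and AURKA, the kinase that protects MYCN from it, at 0.25 and not called in G2/SCR (both were named after their values were seen).

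RNA-binding proteins known to bind MYC or MYCN transcripts showed 3 calls among 11 tested in G2/SCR, all lower and all neuronal members of the ELAVL family, which bind AU-rich and U-rich RNA. The share called was near the 26.9% of all genes tested, while 11.8% of all genes tested were called lower. ELAVL4 (HuD), known to bind and stabilize MYCN mRNA, was at 4739, 4876 and 4781 normalized counts in G2, 11060, 11364 and 10439 in SCR, and 6084 and 6948 in WT. ELAVL3 was at 2912, 2950 and 3333 in G2, 7458, 6860 and 6994 in SCR, and 7390 and 7663 in WT. ELAVL2 was at 879, 819 and 752 in G2, 1928, 2028 and 1988 in SCR, and 724 and 807 in WT. The log2 fold changes in G2/SCR were -1.19 ± 0.06, -1.21 ± 0.06 and -1.28 ± 0.08. Against WT only ELAVL3 was called (-1.30 ± 0.07), while ELAVL4 was at -0.44 and ELAVL2 at 0.09, and both of these were called higher in SCR/WT (0.75 and 1.37). ELAVL4 is also on the list of neuroblast markers, of which 9 of 13 were called lower and 1 higher in G2/SCR. Their summed level ran from 282559 to 286526 in G2, from 395844 to 405289 in SCR and from 364904 to 375840 in WT, and all 13 passed the filter, with TH the scarcest at means of 1.88 in G2, 14 in SCR and 16.9 in WT. The part of this difference in the ELAVL values was not tested.

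The known activated MYC targets of growth, mostly ribosome biogenesis factors, differed much less than MYC between G2 and SCR. Of the 62 tested, 5 were called lower and 3 higher in G2/SCR, where MYC was 3.86-fold lower, and their median was -0.20. Small differences were common among them: without a minimum fold, 42 had an unadjusted limma p of at most 0.05 and a lower value in G2, which is 67.7% of the list against 26.7% of all genes tested. In G2/WT 34 were called lower and 2 higher (median -0.61). The shares of all genes tested called lower were 11.8%, 12.2% and 5.63% in G2/SCR, G2/WT and SCR/WT. In SCR/WT, where MYC was slightly higher in SCR, 7 were called lower and 0 higher by limma (1 had an unadjusted p of at most 0.05 and a higher value), the median was -0.35, and 60 of 62 had a value below 0. Without WT replicate 2, 11 were called lower in SCR/WT. These counts against WT depend on the scaling. With libraries at the same total, 9 were called lower in G2/SCR, 11 in G2/WT and 1 in SCR/WT, and the medians were -0.29, -0.42 and -0.07. G2 and SCR were grown in puromycin and differ from WT in ribosomal RNA share as well, and these differences and the line cannot be told apart in comparisons with WT.

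Of the growth targets called in G2/SCR, the 4 with the smallest p were MCM4, MAP3K6, DUSP2 and MYBBP1A. MCM4, a subunit of the replicative helicase, was at 9937, 9396 and 9397 normalized counts in G2, 5574, 5639 and 5624 in SCR, and 9245 and 9758 in WT, so G2 and WT overlapped and SCR was low. DUSP2, a MAP kinase phosphatase, rose in G2 over both controls (1.37 ± 0.11 and 1.29 ± 0.12), and so did MAP3K6 (1.47 ± 0.11 and 1.11 ± 0.12). MYBBP1A, a nucleolar protein of ribosomal RNA synthesis, fell in G2 against both (-0.62 ± 0.06 and -0.66 ± 0.06), from 8745 to 9382 normalized counts in SCR to between 5642 and 6005 in G2. EXOSC5, an exosome subunit (named after its values were seen), was the growth target with the lowest value in G2/SCR (-0.90 ± 0.11). Its window holds CACGTG (in capitals), and so does that of DUSP2, which rose in G2. In G2/SCR, 3 of the 28 tested growth targets with the motif were called lower and 1 higher. Of the 24 without it, 1 was called lower and 1 higher. Whether the motif bears on these differences was not tested.
EXOSC5 (chr19:41397416-41397475, minus strand): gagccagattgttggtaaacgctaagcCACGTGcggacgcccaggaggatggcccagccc
CACGTG was found in the windows of 29 of the 55 growth targets that have one. In G2/SCR the median log2 fold change was -0.29 for the 28 tested genes with the motif and -0.21 for the 24 without, in G2/WT -0.66 and -0.59, and in SCR/WT, where the order was the other way, -0.32 and -0.39. HSPD1 and NCL, listed at 0 or near 0 in these libraries although cells of every kind use them, and CCND2 were not tested.

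**Figure D4:**
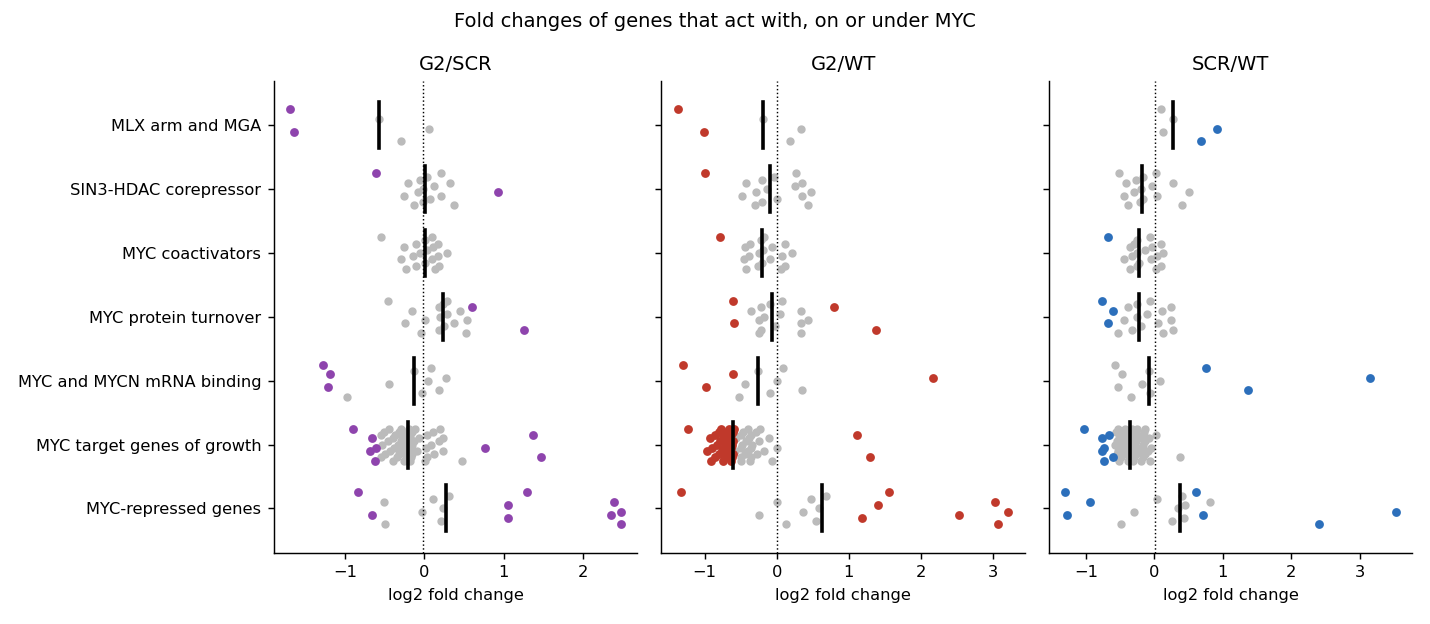
Log2 fold changes of the genes of 7 lists in the 3 comparisons. Coloured points were called, grey points were not, black bars are list medians and the dotted line is the median of all genes tested. The growth targets lie mostly below 0, with medians of -0.20 in G2/SCR, -0.61 in G2/WT and -0.35 in SCR/WT.

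The genes known to be repressed by MYC or MYCN had 7 of 16 called higher and 2 lower in G2/SCR, 7 higher and 1 lower in G2/WT, and 4 higher and 3 lower in SCR/WT, with medians of 0.27, 0.63 and 0.38. All genes tested had 15.1%, 17.7% and 10.7% called higher and 11.8%, 12.2% and 5.63% called lower. CLU, the secreted chaperone clusterin, had 5791, 5928 and 5644 normalized counts in G2, 1138, 1158 and 1087 in SCR, and 756 and 631 in WT (2.36 ± 0.07 in G2/SCR). It was highest in G2 with no overlap. CDKN1B, the cell-cycle inhibitor p27, was called higher in G2/SCR (1.05 ± 0.05) and was at 0.58 in G2/WT, just under the fold for a call. CDKN1A, the inhibitor p21, went the other way between G2 and SCR: it had 11489 to 13793 in G2, 22161 to 23053 in SCR, and 4580 and 4019 in WT, so SCR was highest (-0.84 in G2/SCR and 2.40 in SCR/WT, both called).

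Proliferation markers did not fall with MYC in G2/SCR. None of 11 was called there by limma, edgeR or DESeq2, and of the 9 with an unadjusted limma p of at most 0.05 at smaller folds 8 were higher (median of the list 0.29). These 8 are 72.7% of the list, against 28.3% of all genes tested with such a p and a higher value. MKI67 had 13875, 14236 and 13825 normalized counts in G2, 12773, 11028 and 10623 in SCR, and 14689 and 19643 in WT, and TOP2A was at 0.28 in G2/SCR. Against WT, 5 of 11 were called lower in G2 and 8 of 11 in SCR, and with libraries at the same total 2 and 3. With the main scaling such calls made up 12.2% and 5.63% of all genes tested. Of the mesenchymal or fibroblast genes, 7 of 10 tested were called higher and 0 lower in G2/SCR. In SCR/WT 3 of these 10 were called higher and 0 lower. Among all genes tested 15.1% and 10.7% were called higher in these 2 comparisons. With libraries at the same total, 7 of the 10 were called higher in G2/SCR and 5 in SCR/WT. FN1 and POSTN were at or near 0 in every library. The summed level of the list was 328075 to 330648 in G2, 119997 to 127793 in SCR and 86554 to 97812 in WT. The part of that difference in the MYC values was not tested. Markers of Schwann cells or glia, epithelium, blood and endothelium each summed to at most 608 normalized counts in any library, and SOX10, PTPRC and PECAM1 were at or near 0.

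The genes around MYC and MYCN were examined for a shift of a whole region. Of 9 genes that averaged 100 or more normalized counts and lie within 3 Mb of MYC, none was called in G2/SCR by limma, edgeR or DESeq2, and none in G2/WT by limma, where count models were not run. Their log2 fold changes ran from -0.42 to 0.58 and from -0.45 to 0.48, and 5 and 6 of them had an unadjusted limma p of at most 0.05. Of the 18947 genes tested, 10419 and 10902 had such a p, and 26.9% and 29.9% were called. Before MYC the nearest were PRNCR1 at 653 kb (-0.13 in G2/SCR), TRIB1 at 2305 kb (-0.08) and NSMCE2 at 2510 kb (0.39), and after it PVT1 at 209 kb (-0.42), CYRIB at 2189 kb (-0.03) and ASAP1 at 2509 kb (0.38). PVT1, the long noncoding RNA often gained together with MYC, had 177, 226 and 200 normalized counts in G2, 330, 228 and 253 in SCR, and 200 and 146 in WT, and was called only in SCR/WT (0.64 ± 0.19). Around MYCN, 1 of 8 genes was called in G2/SCR, VSNL1 at 1655 kb (0.86), which encodes a neuronal calcium sensor and was lower in G2 than in WT (-0.84). The nearest, DDX1 at 332 kb, which is often amplified together with MYCN, was at -0.08 in G2/SCR, and NBAS at 580 kb was at 0.31, LRATD1 at 1301 kb at 0.13 (0.83 in G2/WT, called), CYRIA at 664 kb at -0.43 and SMC6 at 1788 kb at -0.06. Of the 3 nearest genes on each side, then, none beside MYC was called in G2/SCR, although ASAP1 and NSMCE2 were higher at smaller folds (limma adjusted p = 0.00022 and 0.0014). Beside MYCN, the G2/SCR comparison had VSNL1 called higher. Against WT, LRATD1 was called higher, as MYCN was, and VSNL1 lower.

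**Figure D5:**
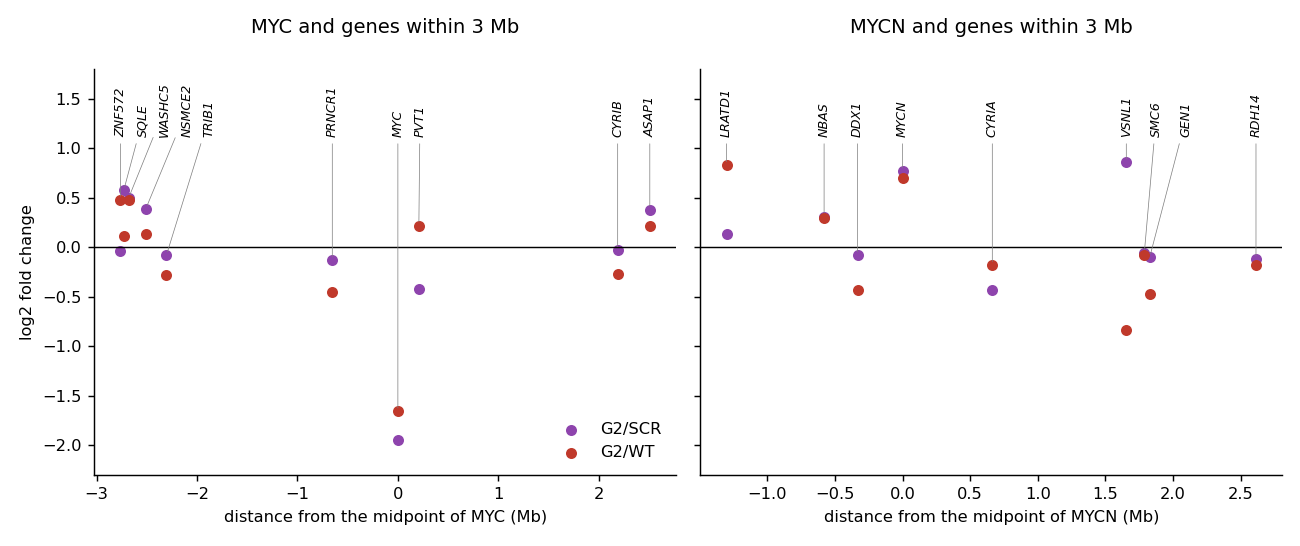
Log2 fold change against distance in Mb from the midpoint of MYC (left) and MYCN (right) for genes averaging 100 or more normalized counts, with G2/SCR in purple and G2/WT in red. MYC lies at -1.95 and -1.66 while its 9 neighbours lie between -0.45 and 0.58.

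Of the 9 noncoding genes of these loci and of related function, 4 passed the filter and none was called in G2/SCR by limma, edgeR or DESeq2 (1, PVT1, had an unadjusted limma p of at most 0.05). MYCNOS, antisense to MYCN, had 19.8, 8.76 and 11.8 normalized counts in G2, 5.1, 4.69 and 19.6 in SCR, and 4.97 and 10.9 in WT, which overlap and leave its direction undetermined at this depth. MIR17HG, the host gene of the MYC-induced miR-17-92 cluster, had 52.7, 32.8 and 48.4 in G2, 60.2, 50.7 and 65.8 in SCR, and 98.1 and 102 in WT. It was called lower than WT in both G2 and SCR (-1.18 ± 0.26 and -0.76 ± 0.26). With libraries scaled to the same total, 1 gene of this list was called lower in G2/WT and 0 in SCR/WT, so the SCR/WT call was lost. CASC15, a neuroblastoma susceptibility gene, was at 0.02 in G2/SCR, and MYCNUT, CCAT1, CCAT2, CASC8 and CASC11 were listed at 0 or at means under 10.

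Over the 8 libraries, the genes whose log2 values were most like those of MYC were INA (r = 0.9993), an intermediate filament protein of neurons, XKR7 (0.9989), the ephrin EFNB2 (0.9988), the synaptic adaptor SNAP91 (0.9986) and TXNIP (0.9981). Their log2 fold changes in G2/SCR lay at -1.51, -1.68, -1.26, -1.65 and -1.64. Those most like MYCN were TCTN2 (0.9922) and TMEM216 (0.9893), both of the ciliary transition zone, PLD2 (0.9849), MAFK (0.9832) and CRYL1 (0.9820). These correlations are a description: the points are 3 lines and share library effects, and 512 of 12587 other genes reached r of at least 0.95 with MYC and 179 with MYCN.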

How the data were processed

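Polyadenylated RNA of the G2, SCR and WT lines was sequenced as stranded paired-end libraries. Mapping by the authors used STAR 2.7.5a and hg38, and counting used featureCounts (Subread 1.5.0, versions per the submitters' processing notes) on FAST DB genes. The deposited table is a signal, each count over the DESeq2 size factor of its library, neither scaled to length nor on a log scale. Dividing by each library's step gave whole counts (within 0.01) for 100.00% of values, with totals of 59804395 to 81080747. In each library 67.1% to 71.5% of counts up to 60 were multiples of 3, so totals over 3 (19934798 to 27026916) were taken as fragments. The step of WT replicate 2 is too near 1 to be checked, so count models were run for G2/SCR alone, where edgeR called 5160 genes and DESeq2 5040.

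Since these are not raw counts, limma 3.58.1 (R 4.3.3, lmFit and eBayes with a trend) was fitted to log2(value + 1) of 18947 genes with a mean of at least 10, with 1 mean per line over 8 libraries. Fold changes are on that scale, which understates those of low genes. Calls needed a fold of 1.5 with an unadjusted p of 0.05 or less. Adjusted p-values are Benjamini-Hochberg over all genes tested. The fit was also run on simulated counts that gave every gene the same dispersion. Spread differs between genes here, so that run does not show how well the fit does on these data. edgeR 4.0.16, DESeq2 1.42.0, other pseudocounts, filters, scalings, a replicate block and leaving out each library were alternatives. Exon lengths are unions of exons of GENCODE release 44, and 99.2% of symbols that name 1 GENCODE gene overlapped it in the table.

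The members and lists were chosen with earlier results of these data known. Named were all members, PRPF40B, up to 4 genes per list with the smallest p among those called in G2/SCR, all genes of lists of up to 9, the 3 nearest neighbours on each side of MYC and MYCN, the 5 genes most like each, and COL3A1, DCN, DBH, MKI67 and TOP2A. A few genes that this rule names are not reported here. Exceptions are marked in the text or belong to background. The promoters come from RefSeq, and each printed stretch was checked against hg38.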

Additional observations from a re-analysis of the deposited data

How the results depend on the processing

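Of 557 values of members recomputed under an alternative, 525 kept their direction and their side of the threshold. MYC kept both in all 3 comparisons under every setting tried. It had at least 754 recovered counts over 3 in a library, while MYCL had as few as 9, which limits its precision. The cause of the changes below was not tested. With libraries scaled to the same total, 5 values changed sign: MYCN in SCR/WT (0.21), MAX in G2/WT (0.13), MXD1 in G2/WT (0.06), MNT in SCR/WT (0.02) and MLX in SCR/WT (0.21). Leaving out 1 library turned MYCN in SCR/WT (-0.18 to 0.05, above 0 without SCR replicate 2 or WT replicate 1), MXD1 in G2/WT (-0.34 to 0.09, above 0 without WT replicate 2), MXD3 in G2/SCR (-0.20 to 0.13, above 0 without G2 replicate 1 or SCR replicate 3, where it was 0.06) and MXD4 in G2/WT (-0.09 to 0.17, below 0 without G2 replicate 3 or WT replicate 2). None of these values was called under the main setting. A fold of at least 2 left MYC, MYCL and MXI1 in G2/SCR, MYC in G2/WT, and MYCL and MXD4 in SCR/WT.

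The genes called went from 5088, 5657 and 3097 (G2/SCR, G2/WT and SCR/WT) to 3088, 3633 and 1723 with a mean of at least 100, where fewer genes were tested, and to 2951, 3176 and 1491 at a fold of at least 2. Leaving out 1 library gave 4795 to 5212, 5088 to 6159 and 2855 to 3542. The growth targets called lower, added after the values were seen, went from 5, 34 and 7 to 9, 11 and 1 with the same total and to 0, 1 and 1 at a fold of at least 2, and ranged over 5 to 7, 28 to 35 and 5 to 11 without 1 library. Equal replicate numbers of the sample titles showed no sign of pairing, as the correlation of their deviations ran from -0.17 to 0.15. The library names carry other numbers, and a block by those was not run. The pair equal by name alone, G2 replicate 2 and SCR replicate 1, was at 0.07. With a replicate block 5059, 5644 and 3057 genes and 5, 33 and 7 growth targets were called, and among members only MXD4 in G2/WT changed sign, to -0.01.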
